A study of Mus musculus with 6 samples.

Results

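The Wnt receptors Fzd1, Fzd2, Fzd4, Fzd6, Fzd7, Fzd8, Lrp5, Lrp6, Ror1 and Ror2 were examined in the cardiac outflow tract (OFT), the vessel at the arterial pole of the embryonic heart that is divided into the aorta and pulmonary artery. They are 10 of the 28777 genes of the count table, chosen by name as Frizzled receptors, Lrp coreceptors and Ror receptors and matched through their Ensembl identifiers. Transcripts were measured by bulk RNA-Seq of E13.5 mouse OFT in 3 libraries labelled mutant (Notch1+/-; Nos3-/-) and 3 labelled wildtype. The RNA of 3 OFTs, cut at the base below the conal cushions, was pooled in each library (18 OFTs in all), so that embryos within a pool cannot be told apart. Wildtype embryos (Notch1+/+; Nos3+/+) were littermates on the same C57/BL6J background, and both mutant alleles are knockouts of the whole animal and not of a chosen cell type. The comparison asked which transcripts differ between the OFT of compound mutant and wildtype embryos.

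Frizzled proteins are the seven-pass membrane receptors that bind Wnt ligands through a cysteine-rich domain outside the cell. Lrp5 and Lrp6 are single-pass coreceptors of the LDL receptor family that join a Frizzled receptor and a Wnt ligand, after which Axin is recruited to the membrane and beta-catenin is no longer degraded. Ror1 and Ror2 are receptor tyrosine kinase-like proteins that bind Wnt5a and act in planar cell polarity and other beta-catenin-independent signaling. In the heart, canonical Wnt signaling is known for its part in endocardial cushion growth, and Wnt5a for its part in OFT septation.

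Depth was between 34729103 and 44387490 counts per library, and a receptor had between 417 and 5834 counts in a library. Levels are given as CPM, counts relative to the size of the library, scaled by TMM, a normalization on the bulk of genes. Of the targeted genes, Notch1 had 74.3, 88.2 and 83.6 CPM in wildtype replicates 1 to 3 and 155, 161 and 139 CPM in mutant replicates 1 to 3. Notch1 was thus higher under the label that names a heterozygous loss (log2 fold change 0.89 ± 0.10 SE, edgeR adjusted p = 0.0313). Nos3 had 31.8, 47.2 and 48.1 CPM in wildtype and 22.1, 22.0 and 20.4 CPM in mutant libraries, a log2 fold change of -0.98 ± 0.15 that passed in DESeq2 (adjusted p = 9.42e-06) and not in edgeR (adjusted p = 0.128). Groups are therefore named here by their labels. The titles and descriptions of wildtype replicates 2 and 3 give opposite library numbers, so these 2 numbers are names only. Wildtype replicate 1 stood apart from the other wildtype libraries, with a chi-square of 57.3 and 71.8 per gene against them, compared with 25.7 between these 2 and 8.16 to 36.9 among the mutant libraries. Marker genes of the myocardium, endothelium and vascular smooth muscle were detected in all 6 libraries.

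The receptor genes are first described by sequence, because Frizzled genes are near copies of each other in places and reads of 50 bases could be split between them. Fzd1, Fzd2 and Fzd7, the closest relatives among the members, each consist of 1 exon. In mm10 Fzd1 lies at chr5:4753839-4758035 on the minus strand, Fzd2 at chr11:102604396-102608058 on the plus strand and Fzd7 at chr1:59482424-59486955 on the plus strand. None of the 10 members shared a stretch of 50 bases with another member. The longest identical coding stretch was 47 bases both between Fzd1 and Fzd2 and between Fzd1 and Fzd7, and 38 bases between Fzd2 and Fzd7. Since the authors removed 3 bases from the first read of a pair, exactly 1 window of 47 bases was common to Fzd1 and Fzd2, and 1 to Fzd1 and Fzd7. The coding sequence around the stretch common to Fzd1 and Fzd2 is shown for the 3 genes, with capitals where the 3 genes are not all the same (11 of 87 positions). The windows are chr5:4756311-4756397 on the minus strand, chr11:102605720-102605806 and chr1:59483954-59484040 of mm10.
Fzd1: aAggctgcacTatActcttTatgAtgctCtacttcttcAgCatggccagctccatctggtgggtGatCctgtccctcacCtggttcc
Fzd2: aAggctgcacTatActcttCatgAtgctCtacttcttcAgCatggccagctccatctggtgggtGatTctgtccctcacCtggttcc
Fzd7: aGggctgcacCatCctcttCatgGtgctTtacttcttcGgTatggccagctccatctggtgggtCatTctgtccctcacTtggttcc
In this window Fzd1 and Fzd2 differed at 2 positions and Fzd1 and Fzd7 at 11. The second window holds the stretch common to Fzd1 and Fzd7, at chr5:4756944-4757030 on the minus strand, chr11:102605081-102605167 and chr1:59483324-59483410, and 18 of its 87 positions are in capitals.
Fzd1: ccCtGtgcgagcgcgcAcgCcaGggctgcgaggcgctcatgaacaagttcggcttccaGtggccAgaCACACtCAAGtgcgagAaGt
Fzd2: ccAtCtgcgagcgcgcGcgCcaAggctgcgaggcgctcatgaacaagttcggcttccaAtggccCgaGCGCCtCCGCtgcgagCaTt
Fzd7: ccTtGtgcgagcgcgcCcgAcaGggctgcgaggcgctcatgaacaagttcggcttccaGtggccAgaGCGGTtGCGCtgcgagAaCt
Here Fzd7 differed from Fzd1 at 13 positions and Fzd2 from Fzd1 at 15. Fzd1, Fzd2 and Fzd7 hold 4151, 3617 and 4486 windows of 47 bases in all, so that 1 of these windows is ambiguous for each pair that includes Fzd1.

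Of the other members, Fzd8, Ror1 and Ror2 like Fzd1, Fzd2 and Fzd7 shared 0 windows of 50 bases with any other gene, and Fzd4, Fzd6, Lrp5 and Lrp6 shared some. Fzd4 (chr7:89404355-89413134), Fzd6 (chr15:39006034-39038188), Fzd8 (chr18:9212163-9218136), Lrp5 (chr19:3584828-3686564), Lrp6 (chr6:134446476-134566965), Ror1 (chr4:100095791-100444765) and Ror2 (chr13:53109312-53286124) had at most 2.12% of their 50-base exon windows elsewhere in the annotated transcripts. That highest share belonged to Fzd6, which overlaps the antisense gene Gm26704 over 152 exon bases. Gm26704 had 5 to 16 counts per library against 709 to 1399 for Fzd6. Whether the counting used the strand is not given in the sources used here.

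Levels between genes were compared per exon length, as RPKM, which is the CPM divided by the exon length in kilobases. Fzd2 had the highest mean over the 6 libraries, 29.4 ± 4.46 RPKM (SD, n = 6), and Fzd1 followed with 26.6 ± 6.53 RPKM. Both receptors bind ligands of the canonical and the non-canonical branch. Fzd2 exceeded Fzd1 in 4 of 6 libraries, and the difference did not pass (mean log2 difference in RPKM 0.17, exact sign-flip permutation test, adjusted p = 0.225). A wide gap followed. Fzd4, the receptor of both Wnt ligands and Norrin that is known from vessels, had 10.5 ± 0.858 RPKM, below Fzd1 in 6 of 6 libraries by 1.30 on the log2 scale. The exact two-sided p of this difference was 0.0312, the smallest that 6 libraries allow, and 0.141 after adjustment over the 9 neighbouring pairs.

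The middle of the order was crowded. Ror2 had 9.55 ± 0.995 RPKM, Lrp5 8.18 ± 1.33, Lrp6 7.09 ± 0.80, Ror1 6.65 ± 0.932 and Fzd6 5.79 ± 0.882 RPKM (SD, n = 6). From Fzd4 down to Fzd6, each gene was above the next in 4 or 5 of 6 libraries, with log2 differences in RPKM of 0.09 to 0.23 and adjusted p from 0.225 to 0.50 in the same exact test. None of these neighbours passed. Pairs ordered alike in 6 of 6 libraries also reached only 0.141 after adjustment, so the test cannot show that these levels are equal. Fzd7 had 4.70 ± 1.24 RPKM, below Fzd6 in 6 of 6 libraries by 0.34 on the log2 scale (adjusted p = 0.141). Fzd8, a receptor known from the forebrain and the kidney, was the lowest with 2.81 ± 0.293 RPKM, below Fzd7 in 5 of 6 libraries (log2 difference 0.70, adjusted p = 0.188). With the longest annotated transcript in place of all exons, Lrp6 moved from rank 6 to rank 4, with 10.3 RPKM, and Fzd2, Fzd1 and Fzd4 kept ranks 1 to 3.

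**Figure D1:**
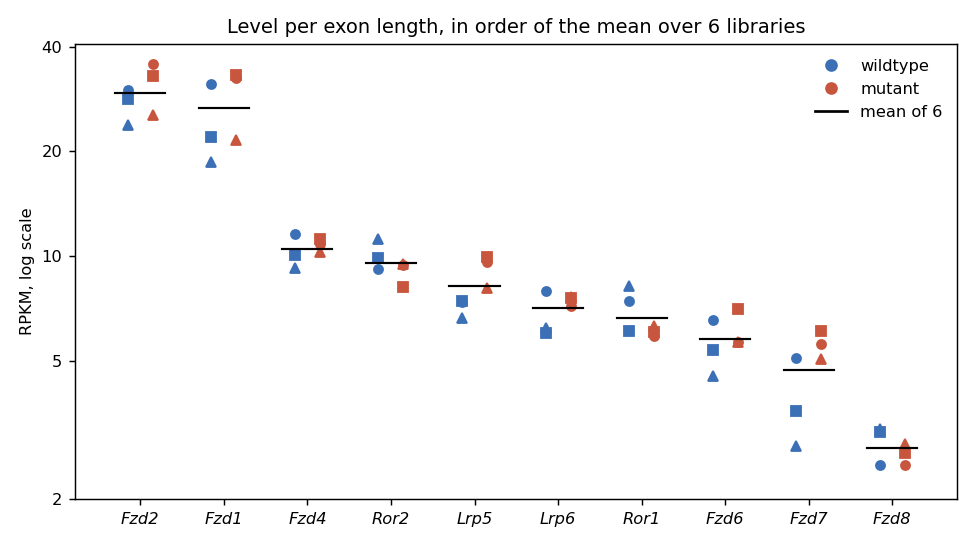
RPKM (log axis) of the 10 receptors in order of their mean over 6 libraries, drawn as black lines. Circles, squares and triangles are replicates 1, 2 and 3 of wildtype (blue) and mutant (red) labels. Fzd2 and Fzd1 stand above the rest at means of 29.4 and 26.6 RPKM, and Fzd8 is lowest at 2.81 RPKM.

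The order was much the same under both labels. Fzd2, Fzd1 and Fzd4 held ranks 1 to 3 and Fzd7 and Fzd8 ranks 9 and 10 in either group. Lrp5 was at rank 6 under the wildtype label, with 7.14 ± 0.450 RPKM, and at rank 4 under the mutant label, with 9.22 ± 0.989 RPKM (SD, n = 3). Ror1 was at rank 5 with 7.23 ± 1.07 RPKM under the wildtype label and at rank 8 with 6.08 ± 0.213 RPKM under the mutant label. Because the ranks between these genes are close, such shifts are descriptions and were not tested.

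Between the groups, none of the 10 receptors passed the test over all genes (0 of 10 at an edgeR adjusted p of at most 0.05), and 0 of 10 were called by DESeq2's Wald test. Over all 28157 genes tested, 6 were called by edgeR (0.0213%), and 742 by DESeq2 (4.05% of the genes it gave an adjusted p, 2.24% being higher under the mutant label). At an unadjusted p under 0.05, 2 of the 10 receptors differed, Lrp5 and Fzd7, and both were higher under the mutant label, where 8.23% of all genes tested were higher at that p. The log2 fold change was above 0 for 7 receptors (5 of the 6 Frizzled genes, and Lrp5 and Lrp6) and below 0 for 3 (Fzd8, Ror1 and Ror2). Of all genes tested, 51.2% were above 0, and of the 7579 genes in the same range of mean CPM 44.0% were. The median of the 10 was 0.15, compared with 0.011 for all genes tested. For 1 of the 10, Lrp5, all mutant values lay above all wildtype values, as they did for 10.7% of all genes tested, while 8.94% had all mutant values below. Fzd7 and Lrp5 are among the genes that the study called on these same libraries, so their direction is not independent evidence here. The study used DESeq2 at the same adjusted p and reported more genes than the 742 called here. The DESeq2 fit here did not reproduce its calls of Fzd7 (DESeq2 adjusted p = 0.0932) and Lrp5 (DESeq2 adjusted p = 0.0568). In bulk libraries, fewer cells of a type and less RNA per cell cannot be told apart.

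**Figure D2:**
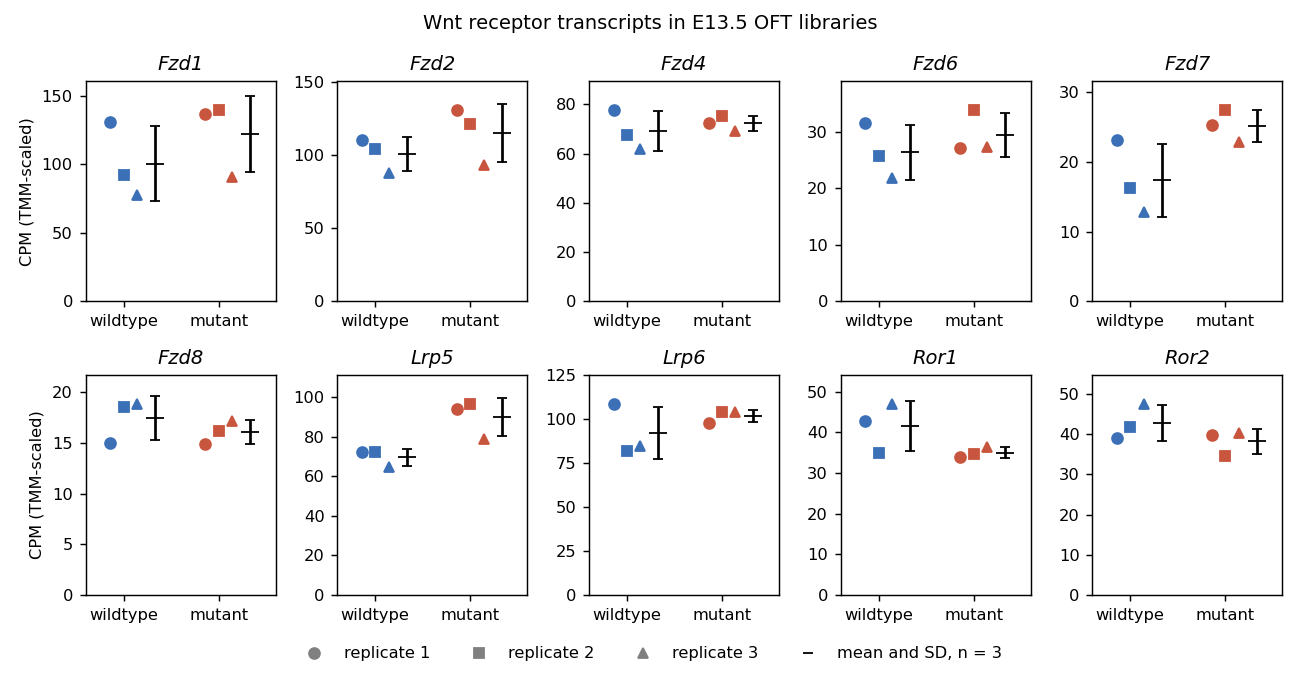
CPM of each receptor in the 6 libraries, with replicates 1, 2 and 3 as circle, square and triangle, and mean and SD (n = 3) in black. Lrp5 is the receptor whose groups are apart (64.5 to 72.2 CPM against 78.8 to 96.7 CPM), and wildtype replicate 3 is the lowest library for 6 of the 10.

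Among the Lrp coreceptors, Lrp5 had 72.0, 72.2 and 64.5 CPM in the wildtype libraries and 93.8, 96.7 and 78.8 CPM in the mutant libraries. All 3 mutant values lay above all 3 wildtype values, the closest being 78.8 against 72.2 CPM. The log2 fold change was 0.37 ± 0.11 (SE), a fold of 1.29, with a 95% interval from 0.13 to 0.60, an edgeR adjusted p of 0.197 and a DESeq2 adjusted p of 0.0568. Both lie above 0.05, and the exact permutation test gave 0.1, the smallest p that 3 against 3 libraries allow. Across the 17 other fits the log2 fold change of Lrp5 was between 0.18 and 0.47, and its adjusted p between 0.0440 and 0.923. Lrp6, the coreceptor whose loss is the more severe in the mouse embryo, had 109, 82.0 and 85.0 CPM in wildtype and 98.2, 104 and 104 CPM in mutant libraries. Its groups overlapped, since wildtype replicate 1 was the highest of the 6. The log2 fold change of Lrp6 was 0.15 ± 0.12 with an interval from -0.11 to 0.41.

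The ratio of Lrp5 to Lrp6 within a library needs no scaling between libraries. On the log2 scale it was -0.39 ± 0.20 under the wildtype label and -0.19 ± 0.18 under the mutant label (SD, n = 3). The difference of 0.20 did not exceed the spread between libraries (exact permutation test, p = 0.3, adjusted over the 5 ratios 0.5). It was 0.10 without wildtype replicate 1, and 0.31 without wildtype replicate 2 or without mutant replicate 3.

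Among the Frizzled genes Fzd7, a receptor of canonical and polarity signaling in many early tissues, had the largest fold change. It had 23.1, 16.2 and 12.8 CPM in wildtype and 25.3, 27.5 and 22.9 CPM in mutant libraries. The groups met at a single point, wildtype replicate 1 with 23.1 CPM lying just above mutant replicate 3 with 22.9 CPM. The log2 fold change was 0.54 ± 0.18 (SE), a fold of 1.45, with a 95% interval from 0.13 to 0.94, an edgeR adjusted p of 0.233, a DESeq2 adjusted p of 0.0932 and an exact permutation p of 0.2. Fzd7 thus did not pass. Without wildtype replicate 1, the library that stood apart, Fzd7 was called (log2 fold change 0.80, edgeR adjusted p = 0.0188), but so were 9.45% of all genes, 2593 in number, and 4.15% were called as higher under the mutant label. Across the 17 other fits its log2 fold change was between 0.21 and 0.80, and its adjusted p between 0.0151 and 0.945.

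Fzd1 and Fzd2, the Frizzled genes of the highest level, followed the same libraries. Fzd1 had 131, 92.4 and 77.9 CPM in wildtype and 137, 140 and 90.6 CPM in mutant libraries. Fzd2 had 110, 104 and 87.5 CPM in wildtype and 131, 121 and 93.3 CPM in mutant libraries. In both genes the groups overlapped, and replicate 3 was the lowest library of each group. The log2 fold changes were 0.28 ± 0.20 for Fzd1 (interval -0.16 to 0.73) and 0.19 ± 0.14 for Fzd2 (interval -0.11 to 0.49), with edgeR adjusted p of 0.514 and 0.516. The ratio of Fzd7 to Fzd1 within a library was -2.48, -2.48 and -2.55 on the log2 scale in wildtype and -2.41, -2.32 and -1.96 in mutant libraries. These groups did not overlap, with a mean difference of 0.27, an exact permutation p of 0.1 and an adjusted p of 0.5. Without mutant replicate 3 the difference was 0.14. The ratio of Fzd7 to Fzd2 differed by 0.38 with overlapping groups (exact p = 0.2, adjusted p = 0.5).

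The log2 fold changes of Fzd4 and Fzd6 were smaller. Fzd4 had 77.8, 67.6 and 61.9 CPM in wildtype and 72.4, 75.4 and 69.1 CPM in mutant libraries, so the mutant values lay within the wildtype range. Fzd6, a receptor known for planar polarity of hair and inner ear cells, had 31.5, 25.8 and 21.8 CPM in wildtype and 27.2, 33.9 and 27.3 CPM in mutant libraries. Log2 fold changes were 0.06 ± 0.11 for Fzd4 (interval -0.17 to 0.30) and 0.16 ± 0.14 for Fzd6 (interval -0.16 to 0.48). Their ratio within a library, Fzd4 to Fzd6, differed between the groups by -0.09 on the log2 scale (exact permutation p = 0.5, adjusted p = 0.625), and by -0.15 to -0.02 with each library left out in turn. Fzd8 had 15, 18.6 and 18.9 CPM in wildtype and 14.9, 16.2 and 17.2 CPM in mutant libraries. It was the single Frizzled member with a log2 fold change below 0, -0.12 ± 0.13, and its interval from -0.40 to 0.16 spans 0.

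Both Ror genes lay below 0. Ror1 had 42.8, 35.0 and 47.1 CPM in wildtype and 33.9, 34.8 and 36.4 CPM in mutant libraries. The mutant values were tight (SD 1.23 CPM, against 6.17 CPM for wildtype), and wildtype replicate 2 lay among them. The log2 fold change of Ror1 was -0.25 ± 0.12 with an interval from -0.51 to 0.01 and an edgeR adjusted p of 0.329. Ror2, a Wnt5a receptor needed for limb outgrowth, had 39.0, 41.8 and 47.6 CPM in wildtype and 39.9, 34.6 and 40.2 CPM in mutant libraries. The groups overlapped, and the log2 fold change was -0.16 ± 0.11 (interval -0.40 to 0.08, edgeR adjusted p = 0.488). With a correction for gene GC content and length the value of Ror2 was -0.32 (edgeR adjusted p = 0.242), and across the 17 other fits it was between -0.32 and 0.01, with an adjusted p from 0.0231 to 0.995. For Ror1 these ranges were -0.36 to -0.12 and 0.068 to 0.964. Their ratio, Ror1 to Ror2, was near equal in CPM under both labels, with a log2 of -0.04 ± 0.20 and -0.12 ± 0.12 (SD, n = 3) and an exact permutation p of 0.7 for the difference, which lay between -0.18 and 0.01 with each library left out in turn.

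**Figure D3:**
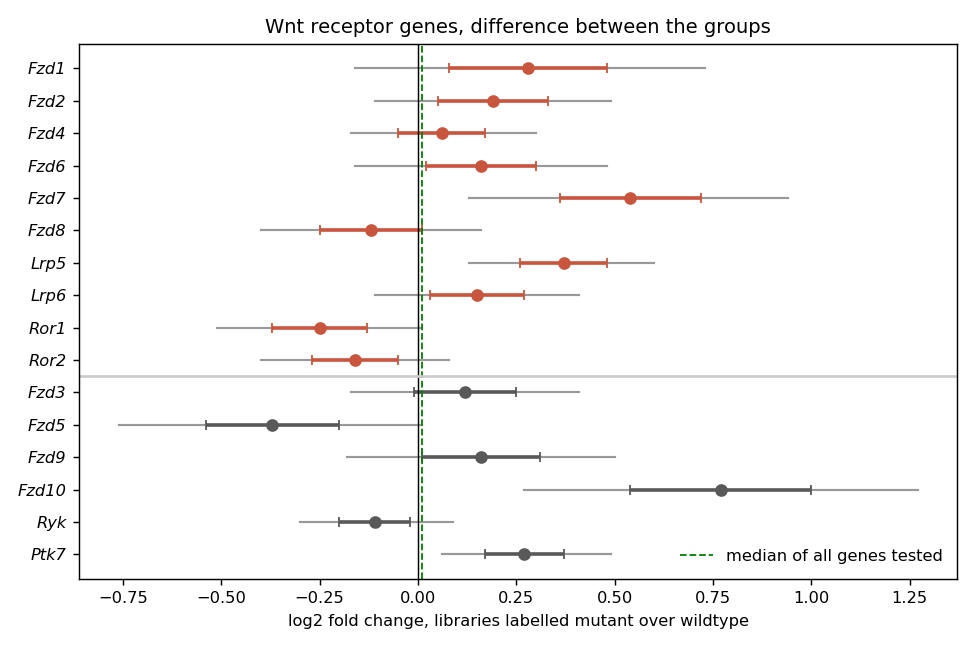
Log2 fold changes, mutant over wildtype labels, of the 10 receptors (red) and 6 other Wnt receptor genes (gray), with SE as thick bars and 95% intervals as thin lines. The dashed line is the median of all genes tested (0.011), and the intervals of Fzd7, Lrp5, Fzd10 and Ptk7 lie above 0 although no gene drawn passed the adjusted test.

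Because wildtype replicate 1 stood apart, each receptor is also given without it. The log2 fold changes were then 0.52 for Fzd1, 0.26 for Fzd2, 0.16 for Fzd4, 0.30 for Fzd6 and -0.22 for Fzd8. Those of Lrp5 and Lrp6 were 0.39 and 0.29, and those of Ror1 and Ror2 -0.23 and -0.22. The 10 signs were as with all libraries, the median was 0.28 in place of 0.15, and 1 receptor was called, the Fzd7 given above. Without wildtype replicate 3, the lowest library for 6 of the 10 receptors, the median was 0.07 and 0 receptors were called. Fzd7 was then at 0.36, Fzd1 at 0.13, Fzd6 at 0.04, Fzd4 at -0.01 and Lrp5 at 0.32. Wildtype replicate 1 had the highest summed mesenchymal markers of its group, 8500 CPM, within the mutant range of 7890 to 10100 CPM.

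The share of each gene in the Frizzled transcript pool also needs no scaling between libraries. All 10 Frizzled genes of the mouse were in the table, and their summed level was 94.6, 78.8 and 68.4 RPKM in wildtype and 101, 101 and 78.1 RPKM in mutant libraries. The sums overlapped between groups, at 80.6 ± 13.2 and 93.2 ± 13.1 RPKM (SD, n = 3). Fzd2 made up 34.3% ± 2.20 of the pool in wildtype and 33.6% ± 1.65 in mutant libraries, and Fzd1 29.4% ± 3.21 and 31.0% ± 2.94. The share of Fzd4 was 12.8% ± 0.610 and 11.7% ± 1.31, and that of Fzd6 6.78% ± 0.140 and 6.61% ± 0.874. Fzd2 and Fzd1 were thus the main part of the pool in every library. Fzd7 was the member whose share did not overlap between the groups, with 5.38%, 4.53% and 4.14% in wildtype and 5.55%, 6.01% and 6.46% in mutant libraries. The mean difference was 1.32 percentage points, at the smallest p the design allows (exact permutation test, p = 0.1, adjusted over the 10 Frizzled genes 0.5). The difference was between 1.05 and 1.67 points when each library was left out in turn. Fzd8 made up 3.75% ± 1.01 and 2.95% ± 0.645, and ran from 2.48% to 4.63% over the 6 libraries with overlapping groups. Of the Frizzled genes outside the 10 receptors, Fzd10 made up 0.974% ± 0.136 in wildtype and 1.48% ± 0.123 in mutant libraries without overlap (exact p = 0.1, adjusted p = 0.5), while Fzd3, Fzd9 and Fzd5 had means between 0.712% and 3.33%.

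**Figure D4:**
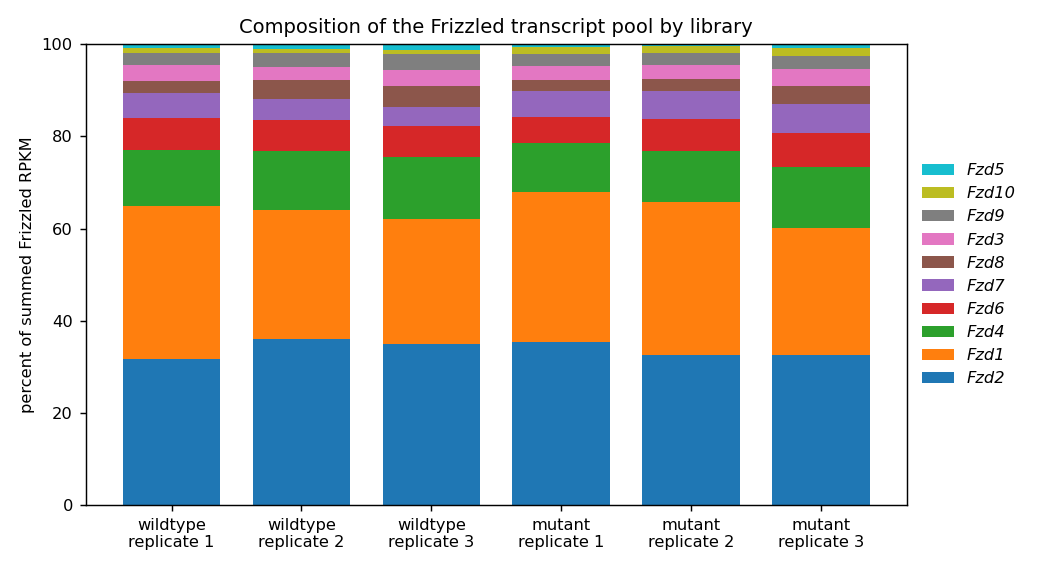
Percent of the summed RPKM of all 10 Frizzled genes taken by each gene, 1 bar per library. Fzd2 and Fzd1 fill most of every bar (means of 34.3% and 29.4% in wildtype), and the Fzd7 band is thicker in the mutant libraries (6.01% ± 0.452) than in wildtype (4.68% ± 0.634).

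Most of the receptors had an extreme value in the same library, and Lrp6 did not. Wildtype replicate 3 was the lowest library for 6 of the 10 receptors (Fzd1, Fzd2, Fzd4, Fzd6, Fzd7 and Lrp5) and the highest for the 3 whose fold change was below 0 (Fzd8, Ror1 and Ror2). Mutant replicate 2 was the highest for 4. After centring each gene's log2 CPM on its mean, the profiles most alike among 45 pairs were those of Fzd4 and Lrp6, which differed by 0.061 on average over the 6 libraries. The least alike were Fzd1 and Fzd8, at 0.444. The points share their libraries, and no test was made. Within the wildtype group the spread in log2 CPM was largest for Fzd7 and Fzd1 (SD 0.41 and 0.38), compared with 0.09 for Lrp5.

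The summed myocardial and mesenchymal markers also had an extreme value in wildtype replicate 3. The 12 myocardial markers all had log2 fold changes below 0 (median -0.49). Their summed level was 25100 to 36300 CPM in wildtype and 17500 to 24300 CPM in mutant libraries, highest in wildtype replicate 3 and lowest in mutant replicate 2. Pln, Myl2, Myh7 and Tnnt2 had the smallest p among them, with log2 fold changes of -0.60, -0.95, -0.50 and -0.48. The 10 mesenchymal markers were all above 0 (median 0.58), with summed levels of 4340 to 8500 CPM in wildtype, lowest in replicate 3, and 7890 to 10100 CPM in mutant libraries. Sox9, Col1a1, Dcn and Prrx1 had the smallest p, with log2 fold changes of 0.92, 0.57, 0.40 and 0.79. None of these markers was called by edgeR (0 of 12 and 0 of 10). At an unadjusted p under 0.05, 9 myocardial markers were lower and 7 mesenchymal markers higher, and DESeq2 called 4 myocardial and 1 mesenchymal. Of all genes tested, 7.83% were lower and 8.23% higher at that p, and DESeq2 called 1.81% as lower and 2.24% as higher. The part of either list in the receptor values was not tested. With the mean of the myocardial markers as a covariate, the median of the receptors was -0.04 in place of 0.15. In that fit Fzd1, Fzd2, Fzd4 and Fzd6 had log2 fold changes of -0.19, -0.08, -0.08 and -0.11 and Ror2 of 0.01, all of the opposite sign, while Fzd7 and Lrp5 stayed above 0 at 0.21 and 0.18 without passing.

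**Figure D5:**
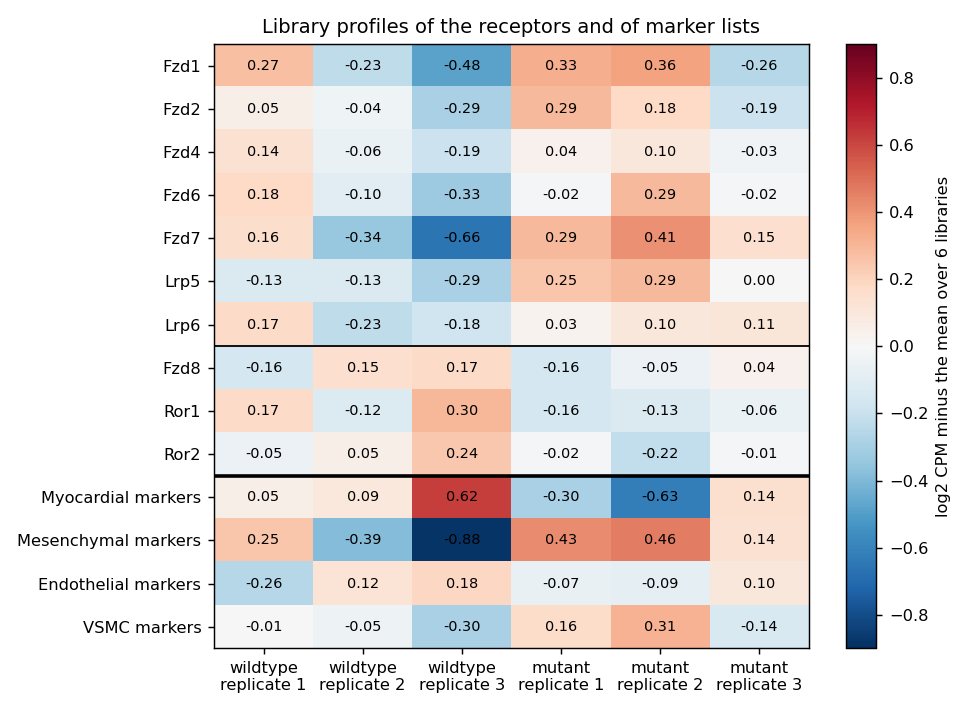
Log2 CPM of each receptor, and mean log2 CPM of 4 marker lists, minus the mean over the 6 libraries (color scale and printed values). In wildtype replicate 3 Fzd1, Fzd7 and the mesenchymal markers are low (-0.48 and -0.66 for the 2 receptors), and Ror1, Ror2 and the myocardial markers are high (0.30 and 0.24 for the 2 receptors).

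The blood list was shifted as much, and the other lists are given by their medians and sums. Medians were -0.05 for 10 endothelial, 0.12 for 8 vascular smooth muscle, -0.14 for 8 epicardial, -0.13 for 8 macrophage and 0.14 for 8 neuronal markers. Summed endothelial markers were 999 to 1330 CPM in wildtype and 1090 to 1210 CPM in mutant libraries. Smooth muscle markers summed to 2860 to 3880 and 3110 to 5580 CPM. Of these 8 markers, 5 had log2 fold changes above 0 and 3 below. Eln, among the former, had means of 1600 and 2920 CPM, and Acta2, among the latter, 1420 and 1190 CPM. Epicardial markers summed to 253 to 412 and 275 to 338 CPM, macrophage markers to 113 to 170 and 110 to 147 CPM, and neuronal markers to 79.2 to 104 and 96.3 to 115 CPM. The 8 blood markers were all below 0 (median -0.55, summed 3170 to 6370 and 3350 to 3500 CPM). Neural crest and glia markers (6 tested, median 0.32) summed to 89.9 to 167 and 66.3 to 112 CPM. Endoderm markers (5 tested, median -0.26) did not exceed 14.5 CPM in sum in any library. Liver markers summed to 1.82, 99.5 and 28.2 CPM in wildtype replicates 1 to 3 and at most 5.84 CPM in mutant libraries (8 of 8 below 0, median -4.26), so the wildtype libraries differed among themselves here. None of these markers was called by edgeR. DESeq2 called 3 blood markers, 1 smooth muscle, 1 neuronal and 1 liver marker, and an unadjusted edgeR p was under 0.05 for 6 blood, 3 smooth muscle, 2 endothelial, 2 neuronal, 2 neural crest and glia and 8 liver markers and for 0 of the others. Of all genes tested, 16.1% had such a p, and DESeq2 called 4.05% of the genes it gave an adjusted p. The part of these marker lists in the receptor values was not tested.

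The Wnt receptors outside the 10 were examined as a set fixed beside them. Fzd10 had 3.26, 2.67 and 1.82 CPM in wildtype and 4.75, 4.48 and 4.08 CPM in mutant libraries, without overlap (log2 fold change 0.77 ± 0.23, edgeR adjusted p = 0.197). Ptk7, a pseudokinase of planar cell polarity, had 129, 125 and 115 CPM in wildtype and 155, 155 and 137 CPM in mutant libraries, also without overlap (0.27 ± 0.10, edgeR adjusted p = 0.240). Fzd5 (5.81 ± 0.703 and 4.47 ± 0.578 CPM) and Ryk, an atypical Wnt5a receptor (96.3 ± 0.558 and 89.6 ± 2.59 CPM), did not overlap in the other direction. Fzd3 and Fzd9 had log2 fold changes of 0.12 ± 0.13 and 0.16 ± 0.15 with overlapping groups. None of the 6 was called by edgeR or DESeq2, and 2 (Fzd10 and Ptk7) had an unadjusted edgeR p under 0.05. Of all genes tested, 8.23% were higher at that p, and 10.7% were higher and 8.94% lower without overlap. Fzd10 was called without wildtype replicate 1, where 4.15% of all genes were called as higher under the mutant label. Fzd5 shares 1233 exon bases with an antisense transcript, and its values are uncertain to that extent.

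Regulators that act on the receptors themselves were examined next. Of 25 listed, 23 were tested, with a median log2 fold change of 0.12. EdgeR called 0 of them, 6 had an unadjusted edgeR p under 0.05, and DESeq2 called 1. That gene was Rnf43, a membrane E3 ligase that removes Frizzled receptors from the cell surface and is itself a Wnt target, with 1.27 CPM under the wildtype and 3.02 CPM under the mutant label (log2 fold change 1.23 ± 0.35, DESeq2 adjusted p = 0.036, edgeR adjusted p = 0.194). Ndp, the Norrin ligand of Fzd4, had 0.981 and 1.66 CPM, Dkk3 170 and 287 CPM, and Sost, an inhibitor that binds Lrp5 and Lrp6, 5.4 and 7.73 CPM, none of them passing either test. Groups did not overlap for 3 of the 23, all higher under the mutant label, as for 10.7% of all genes tested. For this list and those below, the shares over all genes are given here once. At an unadjusted edgeR p under 0.05 they were 16.1% in either direction and 8.23% higher under the mutant label. DESeq2 called 4.05% in either direction and 2.24% as higher.

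Of the 21 ligands and release genes, 15 were tested, with 13 above 0 and a median of 0.19. DESeq2 called 2 of them, Wnt16 (5.67 and 9.71 CPM, log2 fold change 0.77 ± 0.15, DESeq2 adjusted p = 0.00306) and Wnt9b (10.2 and 18.1 CPM, 0.82 ± 0.19, DESeq2 adjusted p = 0.00733), and edgeR called 0, with 4 at an unadjusted p under 0.05. Wnt5b and Wnt2 had log2 fold changes of 0.32 and 0.50. Groups did not overlap for 5 of the 15, all higher under the mutant label, as for 10.7% of all genes tested. Among 22 transducers of the beta-catenin branch, which pass the signal from the receptors to Tcf and Lef factors, 18 were above 0 with a median of 0.11. DESeq2 called Bcl9l, a coactivator (61.7 and 84.8 CPM, log2 fold change 0.46 ± 0.12), and Apc2, a part of the destruction complex (4.74 and 8.58 CPM, 0.85 ± 0.23), while edgeR called 0, with 7 at an unadjusted p under 0.05. Dvl1, the Dishevelled protein that binds Frizzled receptors, and Tcf7l1, a repressor, had log2 fold changes of 0.41 ± 0.13 and 0.32 ± 0.11 without passing. Groups did not overlap for 6 of the 22, all higher under the mutant label, as for 10.7% of all genes tested.

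The 12 target and feedback genes of beta-catenin all had log2 fold changes above 0, with a median of 0.65. DESeq2 called 5 (Axin2, Lef1, Notum, Nkd1 and Rnf43) and edgeR 0, with a smallest edgeR adjusted p of 0.181 and 8 genes at an unadjusted p under 0.05. Rnf43, Znrf3, Lgr5 and Dkk1 are in this list and among the regulators above. Axin2, a feedback inhibitor of the pathway, had 7.43 and 12.5 CPM under the wildtype and mutant label (log2 fold change 0.74 ± 0.17, DESeq2 adjusted p = 0.0116). Notum, an enzyme that inactivates Wnt ligands, had 3.32 and 7.59 CPM (1.19 ± 0.29), and Lef1, a nuclear partner of beta-catenin, 9.30 and 17.1 CPM (0.87 ± 0.22). Groups did not overlap for 7 of the 12, all higher under the mutant label, as for 10.7% of all genes tested. Without wildtype replicate 1, edgeR called 7 of these 12 and 1 of the 10 receptors, all higher under the mutant label. In that fit 9.45% of all genes were called, and 4.15% as higher under the mutant label.

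Partners of the polarity branch, in which Ror and Frizzled receptors work with Vangl and Celsr proteins, had a median of 0.21 over 14 genes. DESeq2 called 2, Prickle3 (6.71 and 10.5 CPM, log2 fold change 0.64 ± 0.15) and the formin Daam2 (38.8 and 52.6 CPM, 0.44 ± 0.12), and edgeR called 0, with 5 at an unadjusted p under 0.05. Invs and Dact1 had log2 fold changes of 0.47 and 0.44 with overlapping groups. Groups did not overlap for 4 genes that were higher and 1 that was lower, beside 10.7% and 8.94% of all genes tested. The LDL receptor family beyond Lrp5 and Lrp6 had a median of 0.21 over 11 genes, 8 of them above 0. Groups did not overlap for 2 of the 11, higher under the mutant label, as for 10.7% of all genes tested. Lrp3 was called by DESeq2 (8.84 and 15 CPM, log2 fold change 0.76 ± 0.23, DESeq2 adjusted p = 0.0404) and not by edgeR, which called 0 of the 11, 2 of them with an unadjusted p under 0.05. Lrp1, a large endocytic receptor, had 178 and 256 CPM (0.53 ± 0.19), Vldlr 117 and 92.4 CPM (-0.34 ± 0.16) and Lrp8 3.11 and 3.79 CPM (0.28 ± 0.19). The study also called Lrp1 and Lrp3 on these libraries, and the DESeq2 fit here did not reproduce its call of Lrp1 (DESeq2 adjusted p = 0.0917).

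Promoter windows of 300 bases, from RefSeq (GRCm38.p6), were searched for 5 of the 10 receptors, Fzd1, Fzd4, Fzd7, Ror1 and Ror2. Those of Fzd1 and Fzd7 lie wholly upstream of the gene bounds given above. The Tcf/Lef motif ATCAAAG was in 0 of the 5 and in 3.7% of all 32851 windows, and the Rbpj motif TGGGAA in 0 of the 5 and in 25.6% of all windows, both strands searched. The absence of these letters from 5 windows says nothing about binding of either factor elsewhere.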

How the data were processed

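Bulk RNA-Seq of 6 E13.5 OFT libraries was analysed. Per the labels and methods, the authors aligned stranded, paired-end total RNA reads to mm10 with TopHat2 (2.1.0) and Bowtie2, counted reads on exons with GenomicAlignments and tested with DESeq2 (1.26.0). The deposited values are raw counts per gene. The annotation release and strand setting are not given in the sources used here. Replicates are separate pools of embryos, and p-values between the groups set a difference against the variation between these libraries. In the fits, that variation is estimated with information shared over genes.

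Fits used edgeR 4.0.16, limma 3.58.1 and DESeq2 1.42.0 under R 4.3.3, and exact tests Python 3.11.15. As in the study, a gene needed more than 5 reads over all libraries, which left 28157. TMM-scaled counts were tested with edgeR's quasi-likelihood test and Benjamini-Hochberg adjustment over all genes, at 0.05, and intervals use the t distribution of that fit. Single values were compared with two-sided exact permutation tests of log2 of CPM plus 0.5. RPKM used the exons of GENCODE vM21 on mm10. The code was tested on simulated counts.

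The members, lists and tests were chosen with earlier results of these data known, and the lists from general knowledge. All 10 members and all other Wnt receptors are described, and of each other list up to 4 genes of smallest unadjusted p with a mean of at least 1 CPM. Nkd1 and Gm26704 were named after their values were seen. Alternatives were other tools, scalings, filters and thresholds, each library left out, a replicate block, GC content and length, and a myocardial covariate. Protein sequences were not analysed here.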

Additional observations from a re-analysis of the deposited data

How the results depend on the processing

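The count of 0 receptors called held with DESeq2, limma-voom, DESeq2's size factors, library size only, no filter, filterByExpr, GC content and length, and the myocardial covariate. At both stricter thresholds the count could only stay at 0, so they are no check of it. Of 170 fits of a receptor under 17 alternatives, all drawn from the same 6 libraries, 5 were called. These calls came without wildtype replicate 1, with a replicate block on the title numbers, and with GC content and length plus that block. Those fits called 9.45%, 5.60% and 8.09% of all genes. Scaling by library size only moved the median of all genes from 0.011 to 0.114 and that of the receptors from 0.15 to 0.25, so the shift was common to both. Genes called numbered 6, and 742 with DESeq2 and 2 at an adjusted p of at most 0.01. With each library left out, genes called were between 1 and 2593, receptors called between 0 and 1 and the receptor median between 0.07 and 0.28, in each case highest without wildtype replicate 1. With GC content and length the receptor median was 0.07, Lrp5 was at 0.20 in place of 0.37, Fzd1 at 0.15 in place of 0.28, Fzd2 at 0.06 in place of 0.19 and Ror2 at -0.32 in place of -0.16. With each library left out in turn, Fzd4 was between -0.01 (without wildtype replicate 3) and 0.16 (without wildtype replicate 1). With the myocardial covariate, which is partly confounded with the label, the receptor median was -0.04. Fzd1 was then at -0.19, Fzd2 at -0.08, Fzd4 at -0.08, Fzd6 at -0.11 and Ror2 at 0.01, and the cause was not tested. With the longest transcript the level of Lrp6 was 10.3 in place of 7.09 RPKM.

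Same-numbered libraries of the groups correlated at 0.096, 0.159 and 0.420 in their deviations from the group means over 16655 genes. Mutant replicates 1 and 3 correlated best with the wildtype library of the same number, and mutant replicate 2 with wildtype replicate 1 (0.277). These values do not settle whether the numbers mark pairs, and the main fit took none. With a replicate block on the title numbers 1577 genes and 2 receptors were called, Fzd7 (log2 fold change 0.57, edgeR adjusted p = 0.0151) and Lrp5 (0.36, edgeR adjusted p = 0.0440), beside 5.60% of all genes. With the description numbers, which swap wildtype replicates 2 and 3, the block gave 83 genes (0.295%) and 0 receptors. GC content and length with the block gave 2273 genes (8.09%) and 2 receptors, Fzd7 (0.48, edgeR adjusted p = 0.0388) and Ror2 (-0.32, edgeR adjusted p = 0.0231).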
